A study of Homo sapiens with 6 samples.

Results

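The centromere is the stretch of chromosome on which the kinetochore is built, and the kinetochore is the protein assembly that holds chromosomes to spindle microtubules in mitosis. Inner proteins, most of them named CENP, sit on chromatin that carries the histone H3 variant CENP-A. Outer proteins bind them, catch microtubules and carry the spindle checkpoint, which delays the separation of chromosomes until all are attached. Many of these genes are transcribed mainly in the G2 and M phases of the cell cycle, so their RNA is usually higher in dividing cell populations.

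The 39 genes described here were listed by name: 18 CENP genes, 15 genes of the outer kinetochore, and 6 others that load CENP-A, protect cohesion or signal in the checkpoint. Of these, 37 had a probe set (a group of array probes summarised as 1 value) paired with that gene alone, out of 19775 genes measured in the same way. Each gene was represented by its brightest such probe set. CENPJ was not analysed here, and CENPP had 1 probe set, shared with another gene in the annotation. CENPJ, despite its name, encodes a protein of the centriole. The RNA came from LNCaP cells, an established androgen-responsive line of human prostate cancer. One group was treated with siRNA (short double-stranded RNA that triggers breakdown of a matching transcript) against the non-coding RNA PCARNEQ. The other received siRNA against EGFP, a jellyfish-derived reporter absent from human cells, as its control. The labels give no dose and no time. Each group, siPCARNEQ and siEGFP, was measured on 3 single-colour Affymetrix arrays. No probe set was paired with PCARNEQ, so its level was not checked. Nothing in the labels says that the arrays of a group came from different cultures, and the spread behind every p-value may thus be technical.

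The arrays differed among themselves in ways that bear on these genes. RNA integrity was read from the control probes of ACTB: the excess of the 3' over the 5' signal was 1.84 log2 units on siPCARNEQ array 1, between 0.68 and 0.69 on the other siPCARNEQ arrays, and between 0.63 and 0.78 on the siEGFP arrays. Array 1 was the lowest of its group for 33 of the 37 genes in siPCARNEQ cells and for 31 of 37 in siEGFP cells. The median gap between array 1 and the mean of arrays 2 and 3 over the 37 genes was -0.39 in siPCARNEQ cells and -0.24 in siEGFP cells on the log2 scale, against 0.01 and 0.02 over all genes. Changes are therefore given for array 1 and for arrays 2 and 3 as well. All 8 measured luminal prostate markers lay above the array median of 7.03 (log2 intensity) in both groups, as did 1 of 5 basal, 2 of 5 neuroendocrine, 4 of 8 fibroblast and smooth muscle and 2 of 7 immune and endothelial markers. The summed intensity of the luminal markers was 61096 to 64000 in siPCARNEQ arrays and 38460 to 41992 in siEGFP arrays. That of the fibroblast and smooth muscle markers was 2576 to 3055 in siPCARNEQ arrays and 1823 to 1854 in siEGFP arrays, that of the neuroendocrine markers 755 to 1110 and 575 to 677, that of the basal markers 648 to 732 and 995 to 1054, and that of the immune and endothelial markers 701 to 733 and 702 to 794. A sum weighs bright genes most. By the limma calls used below, 6 luminal markers rose and 2 were not called. Of the basal markers 1 fell, 1 rose and 3 were not called. Of the neuroendocrine markers 1 rose and 4 were not called. Of the fibroblast and smooth muscle markers 1 fell, 2 rose and 5 were not called, and all 7 immune and endothelial markers were not called. Of all genes 12.3% fell and 15.2% rose. The part of these differences between arrays in the results was not tested.

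Centromere and kinetochore genes were lower in siPCARNEQ cells as a group. Of the 37 genes, 26 fell, 0 rose and 11 were not called by limma (Benjamini-Hochberg adjusted p below 0.05, over all genes), where 12.3% of all genes fell and 15.2% rose. At an unadjusted p below 0.05, 30 fell and 0 rose. The median log2 change was -0.75, against -0.01 over all genes, with a middle 50% of -1.01 to -0.41 for these genes and -0.15 to 0.17 for all. In 31 of the 37 the 3 siPCARNEQ arrays all lay below the 3 siEGFP arrays, which was so for 21.7% of all genes. A called fall of at least 2-fold was found for 10 genes, against 2.14% of all genes. These were SKA2, NSL1, SGO2, NUF2, KNL1, MAD2L1, SPC25, CENPI, SKA3 and SKA1. Of 16 markers of the G2 and M phases 14 also fell, and their part in the result was not tested. Without siEGFP array 2 or array 3, 8 of these markers fell, and with arrays 2 and 3 merged 4 did. Of all genes 8.39%, 8.38% and 5.26% fell under these settings. In RNA from a whole culture, fewer dividing cells and less RNA per dividing cell cannot be told apart.

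The number of genes called depended on which arrays were used. With array 1 left out of both groups 31 of the 37 genes fell, where 18.8% of all genes did. With arrays 2 and 3 merged into 1 value per group 14 fell, where 5.26% of all genes did. Without siEGFP array 2, or without siEGFP array 3, 16 fell, where 8.39% and 8.38% of all genes did. The same 10 genes lost their call in both cases: CENPK, CENPL, CENPM, CENPN, CENPQ, HJURP, OIP5, DSN1, ZWINT and ZWILCH. The 13 genes that passed under all 15 other settings were CENPI, CENPO, CENPF, NSL1, KNL1, NDC80, NUF2, SPC24, SPC25, SKA1, SKA2, SKA3 and SGO2, with SKA1 tested in 13 of them.

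**Figure D1:**
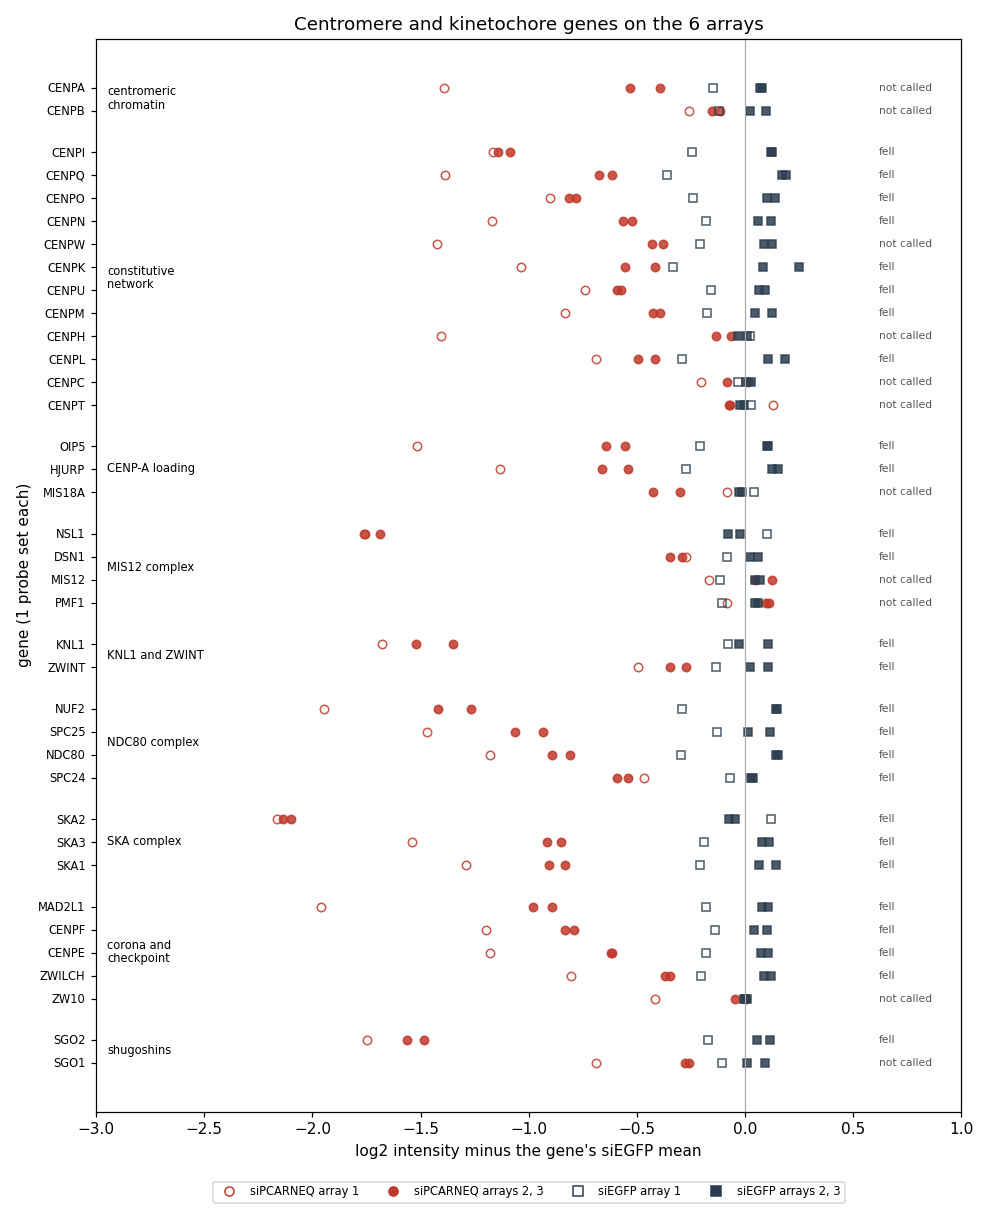
Log2 intensity of each of the 37 genes on the 6 arrays, as the distance from that gene's siEGFP mean (x axis), with genes grouped by role down the page; red circles are siPCARNEQ arrays, dark squares siEGFP arrays, and open symbols array 1. The siPCARNEQ arrays all lie left of the siEGFP arrays in 31 genes, array 1 stands furthest left in most of them, and MIS12 and PMF1 lie around 0.

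The promoters of genes that differed in their response are shown here because the members moved together and much of their transcription in dividing cells is known to run through a few short elements. These are the CHR (cell cycle genes homology region; TTTGAA or TTCGAA), the CCAAT box (CCAAT) and an E2F element (any of TTCCCGC, or TTGGCGC, or TTGCCGC, or TTCGCGC), searched on both strands from 250 bases before to 50 after each start listed by RefSeq (GRCh38.p14). The windows come from RefSeq's annotation and not from the array files. Of the 39 genes, 33 had a window. Capitals mark the letters matched on either strand. SPC25, with a fall past 2-fold, lies on the minus strand at chr2:168890381-168890680 and held 2 CHR, 2 CCAAT and 1 E2F match, 1 of the CHR matches beginning 3 bases before the start.
SPC25: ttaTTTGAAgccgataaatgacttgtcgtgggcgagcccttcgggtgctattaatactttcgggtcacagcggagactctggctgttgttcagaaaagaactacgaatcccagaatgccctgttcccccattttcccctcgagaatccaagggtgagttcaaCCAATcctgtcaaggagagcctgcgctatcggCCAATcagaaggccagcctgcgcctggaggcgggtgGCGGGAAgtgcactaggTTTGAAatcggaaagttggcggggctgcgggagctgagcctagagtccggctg
NUF2, its partner in the NDC80 complex, lies on the plus strand at chr1:163321704-163322003, with an E2F match at base 9 and a CHR match at base 17 after the start.
NUF2: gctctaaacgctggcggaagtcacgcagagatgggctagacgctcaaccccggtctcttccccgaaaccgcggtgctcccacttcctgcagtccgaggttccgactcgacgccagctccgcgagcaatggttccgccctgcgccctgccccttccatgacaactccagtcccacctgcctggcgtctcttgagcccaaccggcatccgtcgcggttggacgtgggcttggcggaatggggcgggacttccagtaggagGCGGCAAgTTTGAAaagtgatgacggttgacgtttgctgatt
SKA2, whose brightest probe set had the deepest fall of the 37, lies on the minus strand at chr17:59155137-59155436 and held 5 CCAAT matches and no CHR or E2F match.
SKA2: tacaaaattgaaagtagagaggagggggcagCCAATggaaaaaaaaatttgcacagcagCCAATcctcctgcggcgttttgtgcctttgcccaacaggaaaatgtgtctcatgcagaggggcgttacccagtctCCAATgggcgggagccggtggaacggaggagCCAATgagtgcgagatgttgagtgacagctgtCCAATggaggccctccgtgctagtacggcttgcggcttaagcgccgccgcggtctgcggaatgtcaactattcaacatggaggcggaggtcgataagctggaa
MIS12, with a change near 0, lies on the plus strand; the later of its listed starts, at chr17:5486316-5486615, held 3 CCAAT matches and 1 E2F match but no CHR match.
MIS12: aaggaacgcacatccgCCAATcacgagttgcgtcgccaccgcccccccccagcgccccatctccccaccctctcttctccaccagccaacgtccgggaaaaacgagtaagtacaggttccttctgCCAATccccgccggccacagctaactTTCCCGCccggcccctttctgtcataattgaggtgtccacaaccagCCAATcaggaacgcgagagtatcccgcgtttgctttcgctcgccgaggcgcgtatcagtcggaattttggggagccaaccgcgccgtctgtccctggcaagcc

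Over all 33 genes with a window, 17 (51.5%) held a CHR match, against 19.5% of all genes with a window, 22 (66.7%) a CCAAT box, against 39.7%, and 15 (45.5%) an E2F match, against 15.3%. By window, 16.4%, 34.6% and 13.0% of all 35116 held them. The gene shares are over all 27305 genes with a window, measured on the arrays or not. Among tested genes with a window, 2651 held a CHR match and 12733 did not. For the CCAAT box these counts were 6421 and 8963, and for the E2F element 3136 and 12248. A CHR match within 50 bases of the start, a span chosen after the sites were seen, was present in 14 (42.4%), against 6.24% of all genes. Of the 17 measured genes with a CHR match 12 fell, with a median log2 change of -0.83, and of the 15 without one 11 fell, with a median of -0.64. The promoters printed above do not stand for these groups. NSL1 and CENPI, with called falls past 2-fold, held no match to any of these elements. CENPC and ZW10 held a CHR match and were not called. Of all tested genes with a window, 14.3% with a CHR match and 13% without one fell. For the CCAAT box the medians were -0.75 in the 21 measured genes with it and -0.96 in the 11 without. For the E2F element they were -0.77 in 15 genes with it and -0.81 in 17 without. Over all tested genes with a window, 13.9% with a CCAAT box and 12.7% without fell. The shares with and without the E2F element were 18.1% and 11.9%. A match is only a run of letters, and its absence says only that the letters are not in the window.

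The question set for this group was how its CENP members compare with its outer kinetochore members. Of 16 measured CENP genes 10 fell and 6 were not called, with a median log2 change of -0.71 and a range of -1.13 to -0.00. Of 15 outer kinetochore genes 12 fell and 3 were not called, with a median of -0.96 and a range of -2.13 to 0.04. Of all genes 12.3% fell. Of the genes called at 2-fold or more, 1 was a CENP gene (CENPI) and 7 were outer kinetochore genes. The outer genes were the more scattered of the classes, with an SD of 0.67 across genes against 0.31 in the CENP genes. The outer median was the value of NDC80 and lay at the edge of a gap, since SPC24, next in that class by size of fall, had a change of -0.53. The class means were -0.87 for the outer genes and -0.63 for the CENP genes. No test of the difference between the classes was made, since it would be a score over chosen genes.

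Array by array, the CENP genes averaged -0.93, -0.48 and -0.48 below the siEGFP mean of each gene on siPCARNEQ arrays 1, 2 and 3, against -0.17, 0.08 and 0.09 on the siEGFP arrays (log2). The outer genes averaged -1.05, -0.75 and -0.79 on the siPCARNEQ arrays, against -0.11, 0.05 and 0.06 on the siEGFP arrays. The outer genes thus lay lower on each siPCARNEQ array, by more on arrays 2 and 3 than on array 1. Without SKA2 and NSL1, the other 13 outer genes averaged -0.91, -0.57 and -0.62 on siPCARNEQ arrays 1, 2 and 3. These 13 lay lower than the CENP genes on arrays 2 and 3 but not on array 1. Their median change was -0.53 and their mean -0.70, against -0.71 and -0.63 for the CENP genes, so the order by median reversed. Counted by place in the structure, with CENPE and CENPF among the outer proteins, 14 of 17 outer genes fell (median -0.94) and 8 of 14 inner genes fell (median -0.65). The order of the classes by count depended on the arrays used. Without siEGFP array 2 or array 3, 9 of 15 outer and 5 of 16 CENP genes fell, and with arrays 2 and 3 averaged 9 and 4 did. The share of all genes that fell was 8.39%, 8.38% and 5.26% under these settings. With arrays paired by replicate number 12 outer and 12 CENP genes fell, where 15.3% of all genes did. With array 1 left out of both groups 12 outer and 13 CENP genes fell, where 18.8% of all genes did.

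**Figure D2:**
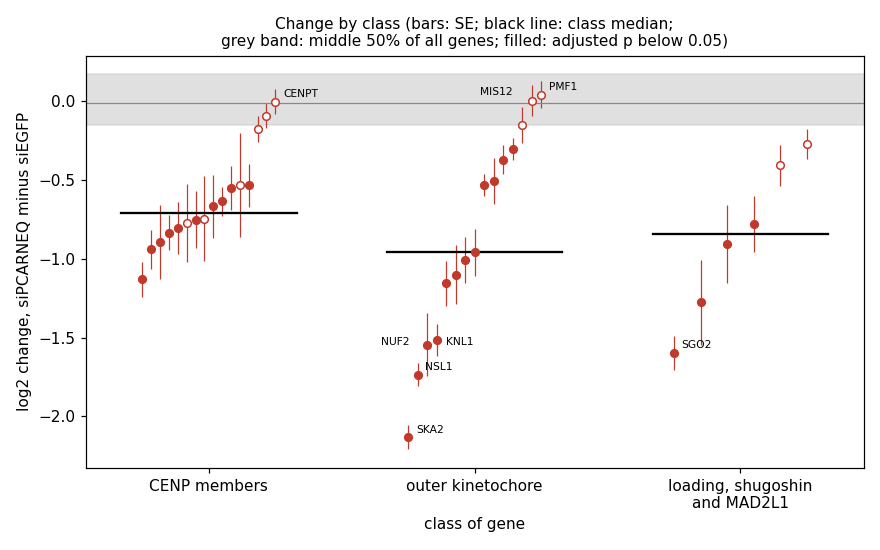
Log2 change (siPCARNEQ minus siEGFP) of each gene with its SE, for CENP genes, outer kinetochore genes and the 6 others; black lines are class medians and the grey band the middle 50% of all genes. SKA2 and NSL1 extend the outer class downwards, while PMF1 and MIS12 in the same class and CENPT among the CENP genes lie in the grey band.

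CENPA encodes the histone variant that marks centromeric chromatin. Its probe set read 7.82, 8.68 and 8.82 on siPCARNEQ arrays 1, 2 and 3, against 9.07, 9.29 and 9.29 on the siEGFP arrays (log2 intensity). The groups did not overlap, and array 1 was far below the other siPCARNEQ arrays. The change was -0.77 (SE 0.25, adjusted p = 0.0542 with limma). It passed once arrays were paired by replicate number, a pairing that no label states (adjusted p = 0.0122 with limma). With arrays 2 and 3 averaged it did not (adjusted p = 0.138 with limma). Counting the main fit, it was called in 5 of the 15 settings that tested it. A second probe set, paired with CENPA and SLC35F6, had a change of -0.87 (adjusted p = 0.0207 over probe sets). CENPB binds a motif in alpha-satellite DNA and is not needed for every centromere. It read 9.35, 9.50 and 9.46 on the siPCARNEQ arrays, against 9.49, 9.64 and 9.71 on the siEGFP arrays, a change of -0.18 (SE 0.08, adjusted p = 0.17), and the groups overlapped slightly.

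The constitutive centromere-associated network is the set of inner proteins that stay at the centromere through the cell cycle and connect CENP-A chromatin to the outer kinetochore. Of its 12 measured genes 8 fell, 0 rose and 4 were not called. CENPI had the largest fall: it read 7.84, 7.87 and 7.92 on the siPCARNEQ arrays, against 8.76, 9.13 and 9.13 on the siEGFP arrays. The siPCARNEQ arrays were tightly grouped, well below all siEGFP arrays. Its change was -1.13 (SE 0.11, adjusted p = 0.000439). CENPO followed the same form, with 8.80, 8.92 and 8.88 on the siPCARNEQ arrays, against 9.46, 9.80 and 9.84 on the siEGFP arrays, and a change of -0.83 (SE 0.11). CENPU, its partner in the same subcomplex of the network, fell by 0.63 (SE 0.09, adjusted p = 0.00234), and CENPQ, another partner, by 0.89 (SE 0.24, adjusted p = 0.0275). CENPN, which binds CENP-A nucleosomes directly, fell by 0.75 (SE 0.18), and its companion CENPL by 0.53 (SE 0.14). CENPK and CENPM, which assemble with CENPH and CENPI, fell by 0.67 (SE 0.20, adjusted p = 0.0437) and 0.55 (SE 0.14, adjusted p = 0.0222).

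CENPC and CENPT, the 2 proteins that reach from the inner network to the outer kinetochore, were not called. CENPC binds CENP-A nucleosomes and the MIS12 complex, and its change was -0.09 (95% interval -0.27 to 0.09). CENPT, a histone-fold protein that recruits the NDC80 complex, read 8.36, 8.16 and 8.16 on the siPCARNEQ arrays, against 8.26, 8.23 and 8.21 on the siEGFP arrays. The groups overlapped, with siPCARNEQ array 1 the highest of the 6, and the change was -0.00 (95% interval -0.19 to 0.18, adjusted p = 0.974). CENPW forms a histone-fold pair with CENPT. It read 10.17, 11.16 and 11.21 on the siPCARNEQ arrays, against 11.38, 11.68 and 11.72 on the siEGFP arrays. These groups did not overlap, and the change was -0.75 (SE 0.27, adjusted p = 0.0846, or 0.0132 when arrays were paired and 0.184 with arrays 2 and 3 averaged). CENPW was called in 3 of 16 settings, counting the main fit. The difference between the changes of CENPT and CENPW was not tested.

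CENPH was the clearest case of a value that rested on 1 array. It read 8.85, 10.19 and 10.12 on the siPCARNEQ arrays, against 10.28, 10.22 and 10.27 on the siEGFP arrays. The siPCARNEQ arrays 2 and 3 were only just below the siEGFP arrays. Array 1 gave a change of -1.43, the other arrays gave -0.09, and the fit to all gave -0.53 (SE 0.33, adjusted p = 0.292). CENPA, CENPW and MAD2L1 also had larger falls in array 1 (-1.24, -1.22 and -1.78) than in arrays 2 and 3 (-0.54, -0.51 and -1.03). Array 1 gave the larger fall for 25 of the 37 genes, and the lower change for 10207 of all 19775 genes. SKA2, NSL1, KNL1, NUF2 and SGO2 differed little between array 1 (-2.28, -1.86, -1.60, -1.66 and -1.58) and arrays 2 and 3 (-2.06, -1.67, -1.48, -1.49 and -1.61). The part of RNA quality on siPCARNEQ array 1 in these differences was not tested.

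**Figure D3:**
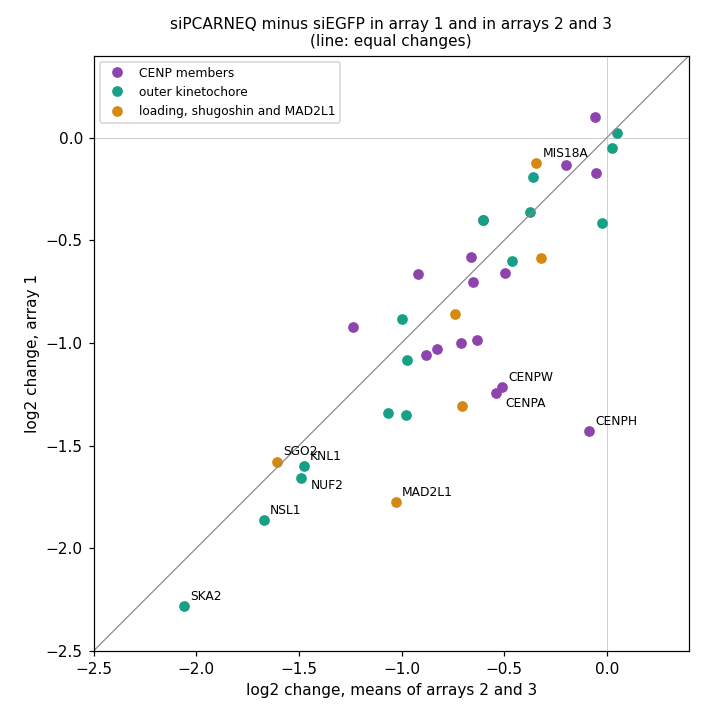
Log2 change (siPCARNEQ minus siEGFP) in array 1 (y axis) against that in the means of arrays 2 and 3 (x axis) for the 37 genes, coloured by class; the line marks equal changes. SKA2, NSL1, KNL1, NUF2 and SGO2 lie near the line, while CENPH, CENPA, CENPW and MAD2L1 lie well below it.

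New CENP-A is placed at centromeres after mitosis by its chaperone HJURP, with the MIS18 complex, which includes MIS18A and OIP5, marking the site. HJURP fell by 0.78 (SE 0.18, adjusted p = 0.016). OIP5 read 9.48, 10.45 and 10.36 on the siPCARNEQ arrays, against 10.79, 11.11 and 11.11 on the siEGFP arrays, and fell by 0.91 (SE 0.25, adjusted p = 0.0318). The groups did not overlap in either gene. MIS18A read 10.47, 10.25 and 10.13 on the siPCARNEQ arrays, against 10.59, 10.54 and 10.53 on the siEGFP arrays. It was lower on each siPCARNEQ array but by little, with a change of -0.27 (SE 0.10, adjusted p = 0.079). The adjusted p was 0.0398 when arrays were paired and 0.344 with arrays 2 and 3 averaged (limma). MIS18A was called in 5 of 16 settings, counting the main fit. Of the other 2 probe sets of MIS18A, the brighter had a change of -0.26 (adjusted p = 0.253 over probe sets), with overlapping groups. The dimmer, whose siPCARNEQ mean of 6.63 was below the array median, had a change of -0.58 (adjusted p = 0.00514 over probe sets).

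The MIS12 complex is a 4-subunit bridge between the inner and the outer kinetochore, and of its 4 genes 2 fell and 2 were not called. NSL1 read 10.25, 10.33 and 10.26 on the siPCARNEQ arrays, against 12.12, 11.99 and 11.94 on the siEGFP arrays. That is a ratio of 0.300 between the groups, with a log2 change of -1.73 (SE 0.07, adjusted p = 2.93e-05). DSN1 fell by 0.30 (SE 0.07, adjusted p = 0.0157). MIS12 itself read 11.34, 11.63 and 11.55 on the siPCARNEQ arrays, against 11.39, 11.55 and 11.57 on the siEGFP arrays, so that the groups lay over each other. Its change was 0.00 (95% interval -0.23 to 0.23), and that of PMF1 was 0.04 (95% interval -0.16 to 0.24). The 95% interval of NSL1 was -1.91 to -1.56, apart from both, though the differences between subunits were not themselves tested.

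KNL1 is the scaffold on which the checkpoint kinase BUB1 and its partners gather. It read 8.48, 8.81 and 8.64 on the siPCARNEQ arrays, against 10.08, 10.13 and 10.27 on the siEGFP arrays, and fell by 1.52 (SE 0.10, adjusted p = 0.000111). All siPCARNEQ arrays were more than 1 log2 unit below all siEGFP arrays. ZWINT, which binds KNL1 and helps bring in the RZZ complex, read 12.66, 12.88 and 12.81 on the siPCARNEQ arrays, against 13.02, 13.26 and 13.18 on the siEGFP arrays, and fell by 0.37 (SE 0.09, adjusted p = 0.023).

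The NDC80 complex is the main microtubule-binding part of the kinetochore, made of an NDC80 and NUF2 pair at the microtubule end and an SPC24 and SPC25 pair at the chromosome end. All 4 subunits fell, under each of the 15 other settings as well. NUF2 read 9.11, 9.80 and 9.64 on the siPCARNEQ arrays, against 10.77, 11.21 and 11.21 on the siEGFP arrays, and fell by 1.54 (SE 0.20, adjusted p = 0.00129). SPC24 had the smallest change of the 4, with 10.27, 10.14 and 10.20 on the siPCARNEQ arrays, against 10.67, 10.77 and 10.77 on the siEGFP arrays, and a change of -0.53 (SE 0.07, adjusted p = 0.00151). NDC80 fell by 0.96 (SE 0.15). SPC25 fell by 1.16 (SE 0.14). The 95% intervals were -2.01 to -1.08 for NUF2, -1.31 to -0.61 for NDC80, -1.49 to -0.82 for SPC25 and -0.70 to -0.37 for SPC24, and the differences between subunits were not tested.

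The SKA complex holds the kinetochore on the ends of growing and shrinking microtubules, and its 3 genes all fell. SKA2 read 9.56, 9.59 and 9.62 on the siPCARNEQ arrays, against 11.84, 11.68 and 11.65 on the siEGFP arrays. That is a ratio of 0.228 between the groups and a log2 change of -2.13 (SE 0.08, adjusted p = 2.51e-05). The size of this fall holds for the probe set that was brightest over all arrays, through its siEGFP level of 11.72. In siPCARNEQ cells the other probe set was the brighter, at 9.97 against 9.59, and its change was -0.48. The mean of both probe sets had a change of -1.31. SKA1 read 7.24, 7.63 and 7.70 on the siPCARNEQ arrays, against 8.32, 8.68 and 8.59 on the siEGFP arrays, and fell by 1.01 (SE 0.14, adjusted p = 0.00214), and SKA3 fell by 1.10 (SE 0.19). The groups did not overlap for any of the 3.

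At the outermost layer, the corona, CENPE is a kinesin motor that moves chromosomes to the middle of the spindle, and CENPF is a large coiled-coil protein that binds dynein regulators. CENPE fell by 0.80 (SE 0.17, adjusted p = 0.0103) and CENPF by 0.94 (SE 0.13, adjusted p = 0.00159). ZWILCH and ZW10 belong to the RZZ complex, which brings dynein and the MAD proteins to unattached kinetochores. ZWILCH fell by 0.51 (SE 0.15, adjusted p = 0.0399). ZW10 read 10.64, 11.01 and 11.06 on the siPCARNEQ arrays, against 11.05, 11.07 and 11.05 on the siEGFP arrays. The groups overlapped, with array 1 alone clearly lower, and the change was -0.15 (95% interval -0.42 to 0.12). MAD2L1, which encodes the checkpoint protein MAD2, read 10.96, 12.03 and 11.94 on the siPCARNEQ arrays, against 12.74, 13.00 and 13.03 on the siEGFP arrays. It fell by 1.28 (SE 0.27, adjusted p = 0.0113).

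Shugoshins protect the cohesin that holds sister chromatids together at the centromere. SGO2 read 8.84, 9.11 and 9.03 on the siPCARNEQ arrays, against 10.42, 10.71 and 10.65 on the siEGFP arrays, and fell by 1.60 (SE 0.11, adjusted p = 0.000111). SGO1 read 6.67, 7.08 and 7.10 on the siPCARNEQ arrays, against 7.25, 7.37 and 7.45 on the siEGFP arrays, with its siPCARNEQ mean below the median probe set of the array. Neither gene's groups overlapped. The change of SGO1 was -0.41 (SE 0.13, adjusted p = 0.052, or 0.0116 when arrays were paired and 0.166 with arrays 2 and 3 averaged). Counting the main fit, SGO1 was called in 4 of the 15 settings that tested it. Its other probe set fell by 1.04 (adjusted p = 0.00287 over probe sets).

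Probe sets of the same gene agreed in direction where they were called, but not in size. The 37 genes had 65 single-gene probe sets, of which 39 fell, 0 rose and 26 were not called, where 8.61% of all 54613 probe sets fell and 9.92% rose. Of 16 genes with more than 1 probe set, 3 (CENPF, SGO2 and SKA2) fell in all of them, 12 in some and 1 (CENPT) in none. One of the CENPF probe sets had means of only 3.89 in siPCARNEQ and 4.29 in siEGFP cells, far below the array median of 7.03. The widest spread was in NSL1, KNL1 and SKA2, genes with some of the deepest falls. The second probe set of SKA2 read 9.87, 10.02 and 10.02 on the siPCARNEQ arrays, against 10.38, 10.45 and 10.52 on the siEGFP arrays, a change of -0.48 (SE 0.08) where the brightest had -2.13. The 4 probe sets of NSL1 had changes of -1.89, -1.73, -0.36 and -0.19. That at -0.36 had means of 4.72 in siPCARNEQ and 5.07 in siEGFP cells, below the array median of 7.03. That at -0.19 had means of 7.69 and 7.88, above it. In KNL1, 3 probe sets had changes of -1.52 to -1.64 and the last had -0.03, with all 6 of its arrays between 3.54 and 3.72, far below the array median of 7.03. Those at -1.55 and -1.64 had siPCARNEQ means of 7.01 and 5.96, below that median, and siEGFP means of 8.56 and 7.60, above it. Which transcript forms these probe sets read was not analysed here.

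**Figure D4:**
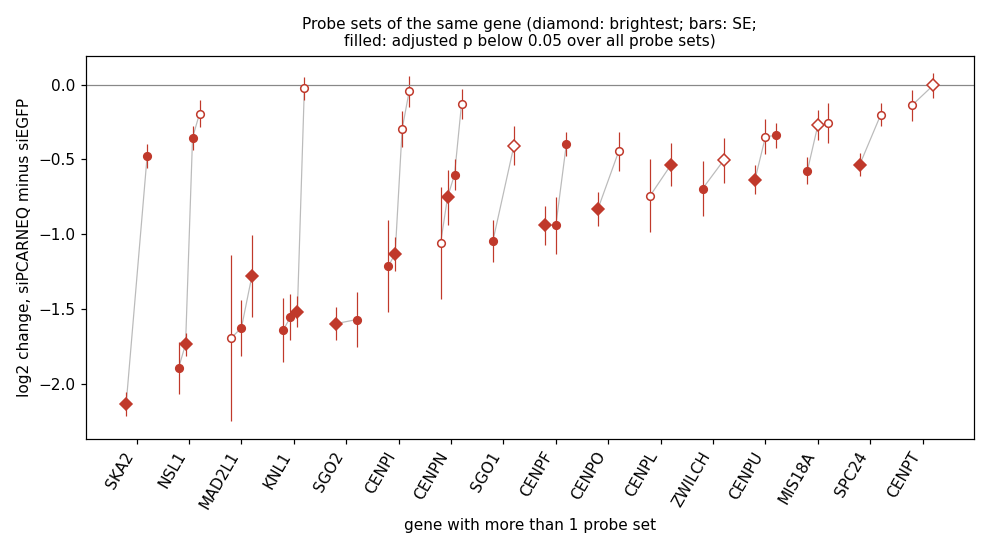
Log2 change (siPCARNEQ minus siEGFP) with its SE for each single-gene probe set of the 16 genes that have more than 1; diamonds are the brightest probe set and filled symbols those with an adjusted p below 0.05. SKA2, NSL1 and KNL1 each have probe sets far apart, while those of SGO2 lie together.

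Several of these genes start back to back with another gene on the opposite strand, a property looked up after the values were seen. RefSeq starts within 1000 bases upstream on the other strand were found for 18 of the genes, and in 12 such pairs both genes were measured. Of these 12, the centromere or kinetochore gene fell in 10, while the neighbour fell in 2, rose in 1 and was not called in 9. Of all genes 12.3% fell and 15.2% rose, so the neighbours' counts were near the background. The median log2 change was -0.90 for the centromere and kinetochore genes and -0.10 for their neighbours. NSL1 starts 117 bases from TATDN3, whose change was 0.04 (SE 0.09, adjusted p = 0.811). NDC80 starts 52 bases from METTL4, whose change was 0.14 (SE 0.09, adjusted p = 0.327). MMUT, the mitochondrial methylmalonyl-CoA mutase that starts 117 bases from CENPQ, was 11.81 ± 0.16 in siPCARNEQ cells and 11.14 ± 0.05 in siEGFP cells (SD, n = 3 arrays) and rose by 0.68 (SE 0.09, adjusted p = 0.00182 with limma). The neighbours that fell were PRR11, 560 bases from SKA2 (-0.64, SE 0.08), and NUSAP1, a spindle protein 290 bases from OIP5 (-0.56, SE 0.10).

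**Figure D5:**
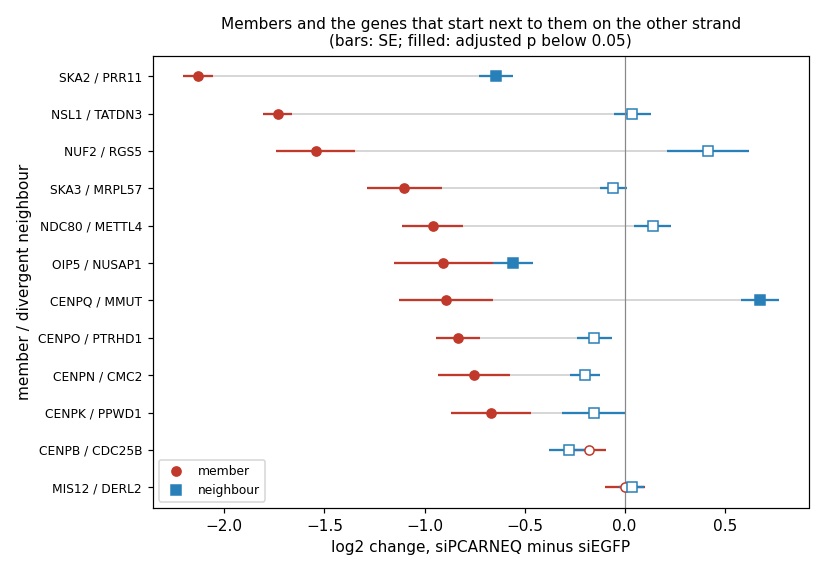
Log2 change (siPCARNEQ minus siEGFP) with its SE for 12 centromere or kinetochore genes (red circles) and the gene that starts next to each on the other strand (blue squares); filled symbols have an adjusted p below 0.05. For 10 pairs the red symbol is filled and left of zero, and 9 of the 12 blue symbols are open.

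Of 49 measured genes that work with the kinetochore but are outside the 39, 28 fell and 3 rose. In the checkpoint and chromosomal passenger list 13 of 16 genes fell and 1 rose (median -0.89), with BUB1B, a checkpoint kinase-like protein, and CDCA8, a passenger subunit, at -1.25 and -1.20. The member that rose was MAD1L1 (0.44, SE 0.12, adjusted p = 0.0297), which encodes MAD1, the partner that holds MAD2 at the kinetochore. Its call was lost without siEGFP array 2, without siEGFP array 3 and with arrays 2 and 3 averaged. Under these settings 9, 9 and 7 genes of the list fell, where 8.39%, 8.38% and 5.26% of all genes did. Among 14 genes for microtubule handling 8 fell and 1 rose (median -0.31), with SPAG5 and the kinesin KIF2C at -1.24 and -1.18, and NDEL1, a dynein regulator, higher by 0.49 (SE 0.08). Without siEGFP array 2 or array 3, 3 of these 14 genes fell, and with arrays 2 and 3 averaged 2 did, against the same shares of all genes. Of 15 genes of cohesin and its release 6 fell and 1 rose (median -0.33). ESPL1, the separase that cuts cohesin, fell by 1.33 (SE 0.09), STAG1 by 0.71 (SE 0.08), and PDS5B rose by 0.40 (SE 0.07). Of the 4 measured genes among other inner kinetochore and CENP-A loading partners, ITGB3BP, also known as CENP-R, fell by 0.51 (SE 0.07) and the other 3 were not called. Over these 4 lists 28 of 49 genes fell and 3 rose, against 12.3% and 15.2% of all genes. The share that rose was thus below that background.

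Markers of the G2 and M phases moved with the centromere and kinetochore genes. None of the 16 rose, and their median log2 change was -0.82, with TOP2A, a DNA topoisomerase, and the kinase AURKA at -0.92 and -0.83. Their mean distance from the siEGFP mean was -1.36, -0.66 and -0.68 on siPCARNEQ arrays 1, 2 and 3, against -0.20, 0.11 and 0.09 on the siEGFP arrays, with array 1 lowest in both groups as for the kinetochore genes. Among 17 measured regulators linked to the CHR, CCAAT and E2F elements, not all of which bind them, 6 fell and 3 rose, with a median of -0.10. Of all genes 12.3% fell and 15.2% rose, and the count that rose was near that background. Without siEGFP array 2 or array 3, 4 fell and 2 rose. Of all 19775 genes 8.39% and 8.38% then fell, and 2042 and 2056 genes rose. The pocket protein RBL1 and LIN54, the CHR-binding subunit of the DREAM complex, fell by 0.99 (SE 0.14) and 0.45 (SE 0.07), LIN54 from a probe set below the array median in both groups. RBL2, the other pocket protein of DREAM, rose by 0.79 (SE 0.08) and NFYB, a subunit of the factor that binds CCAAT, by 0.60 (SE 0.06).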

How the data were processed

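Total RNA of LNCaP cells was measured on 6 arrays, 3 per group, as labelled in the titles. Intensity, linear and 1 value per probe set, is what was deposited; the submitters' processing notes name RMA (robust multi-array average) without a version. RMA sets all arrays to 1 distribution: every array had a median of 130.8, so a shift of all RNA cannot be seen. The genome build is not given in the sources used here.

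Log2 was taken without a pseudocount. Of 54675 probe sets, 62 controls were left out and 41091 had 1 gene in the platform annotation, and the brightest by mean log2 level over all arrays stood for its gene. The 2-sided comparison of siPCARNEQ with siEGFP used limma 3.58.1 (lmFit, eBayes; R 4.3.3) on 19775 genes or 54613 probe sets, with no covariate. The code was tried on simulated data with independent noise on each array. Those data held no shift shared by genes, such as that of array 1 here, so the trial says nothing about its effect. Intervals are limma's 95% intervals. Figures used matplotlib 3.10.9. The genes and lists were chosen with earlier results of these data known.

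Per-array values are given, by role, for the genes with the largest and the smallest change, with CENPO, CENPW and CENPH added after their values were seen. From each other list at most 2 genes per called direction, by smallest p, are named. Deviations of arrays with the same number correlated at 0.47, 0.30 and 0.34 across probe sets, all over 0.1. Arrays with different numbers were not correlated, so these values cannot show that arrays are paired by number. No label states a shared day, and pairing by replicate number is an assumption. The replicate number was used as a block only where named. The number of arrays limits the precision.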

Additional observations from a re-analysis of the deposited data

How the results depend on the processing

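Under 15 other settings, 0 of the 37 genes rose in any. The count that fell, 26, lay between 16 and 28 when 1 array was left out, lowest without siEGFP array 2 or 3, and was 14 with arrays 2 and 3 averaged, 31 without array 1 and 30 with a replicate block (arrays paired by number), which ended no call and added CENPA, CENPW, MIS18A and SGO1. CENP genes that fell (10) lay between 5 and 10 with 1 array left out and were 4 with arrays 2 and 3 averaged, 12 with the block and 13 without array 1, outer genes that fell (12) between 9 and 12, and partner list genes that fell (28) between 18 and 29, and 13 with arrays 2 and 3 averaged. Of all genes 8.39% fell without siEGFP array 2, 8.38% without siEGFP array 3 and 5.26% with arrays 2 and 3 averaged. The shares were 15.3% with the block and 18.8% without array 1. Averaging leaves 2 values per group, and leaving out an array leaves 2 in 1 group.

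The median log2 change lay between -0.87 and -0.57 with 1 array left out for all 37 genes, between -0.84 and -0.47 for CENP genes and between -1.11 and -0.85 for outer genes. The outer median was -0.75 without genes below the median level, which removed SKA1. CENPT, MIS12 and PMF1, which lay near 0 and were not called, changed sign. CENPT lay between -0.072 and 0.029 with 1 array left out and was 0.022 with arrays 2 and 3 averaged. MIS12 lay between -0.061 and 0.086 with 1 array left out, and was -0.011 with arrays 2 and 3 averaged and -0.035 under cyclic loess. PMF1 lay between -0.014 and 0.102 with 1 array left out and was -0.0078 under cyclic loess. Leaving out probe sets that can match several transcripts left CENPA, CENPH, CENPL, MIS12, ZWINT and SKA1 without a value.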
